A study of Rattus norvegicus with 48 samples.

Results

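The comparison described here set rats fasted for 3 days (F3) against rats fasted for 2 days (F2), in cerebral endothelial cells (CECs) of the brain cortex. Its members are all the F2 and F3 samples, 3 of each, so 6 of the 12 samples of the series. The other samples came from rats fed ad libitum (AL) and rats fasted for 1 day (F1), and they entered the gene filter, the normalization and the estimate of the spread, but not the contrast. All animals were adult male Wistar-Han rats, killed at the same clock time after food was withdrawn. The cortices of several rats were pooled for each isolation, and the cells were depleted of CD11b-positive microglia and then selected on CD31 with magnetic beads, so each sample stands for a pool of animals. Polyadenylated RNA was sequenced, and each sample was read in 4 technical replicates, whose counts were summed.

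CECs form the blood-brain barrier, and tight junctions between them leave most nutrients to cross by transporters of the solute carrier (SLC) family. In a fast, the liver turns fatty acids into ketone bodies, which enter the brain through monocarboxylate transporters, while glucose enters through GLUT1. The question of the comparison is what another day without food changed in these cells after day 2.

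Each sample of the series held between 20718644 and 25960874 reads assigned to genes, and the range was 23537074 to 24277115 in F2 rats and 24027073 to 25960874 in F3 rats. Technical replicates of a sample agreed within sampling noise, their chi-square over degrees of freedom lying between 0.986 and 1.04 in these groups. F2 sample j stood apart: it reached 48.8 and 51.5 against the other F2 samples, while F2 samples i and k differed by 11.5 and F3 samples by 10.3 to 14.1. Results are therefore also given without it. The level of Pecam1, the gene of CD31, was 32113 ± 218 normalized counts (SD, n = 3) at day 2 and 33891 ± 767 (SD, n = 3) at day 3, where a normalized count is a count scaled to a common library size. None of the 34 tested markers of pericytes, smooth muscle cells, fibroblasts, astrocytes, microglia, oligodendrocytes, neurons or red blood cells passed the threshold in edgeR or DESeq2, and 3 had an unadjusted p-value under 0.05 in edgeR. The summed counts of the 5 pericyte markers were 6424, 3735 and 7155 in F2 samples i, j and k and 6745, 2473 and 4649 in the F3 samples, so the groups overlapped. All 5 had an LFC (log2 fold change of F3 against F2) below 0, with a median of -0.31. The markers of smooth muscle cells (3 of 3 below 0, median -0.37), fibroblasts (4 of 5, median -0.30), astrocytes (3 of 3, median -0.48) and neurons (4 of 6, median -0.22) likewise lay mostly below 0, without a call, and 6 of 9 markers of microglia and macrophages had an LFC above 0 (median 0.16). The summed counts ran from 1842 to 3309 in F2 and 1442 to 3117 in F3 samples for smooth muscle cells, from 1030.3 to 1569.7 and 716 to 1438.5 for fibroblasts, and from 2807 to 4086 and 3699 to 3930.0 for microglia and macrophages. Those of astrocytes ran from 6360.4 to 7829.7 and 3871 to 6969.9, and those of neurons from 4633 to 4874 and 3590.2 to 4230.2, the neuron sums being without overlap. For oligodendrocytes (1 of 2 below 0) they ran from 34.1 to 37.1 and 25.1 to 37.7, and for red blood cells (1 of 1 below 0) from 36.1 to 48.5 and 37.1 to 53.6. Pecam1 does not stand for all endothelial markers. Of the 8 tested, 4 had an LFC above 0 and 4 below 0 (median 0.022), and edgeR called 1, Adgrl4, upward, while DESeq2 called 3. Slco1a4 (LFC -0.31, adjusted p = 0.0627, edgeR) and Slco1c1 (LFC -0.25, adjusted p = 0.0918, edgeR) were lower without overlap and were not called by edgeR. The part of other cell types in the results was not tested. In bulk samples, fewer cells of a type and less RNA per cell cannot be told apart.

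The test covered 13050 genes, those counted at least once in every one of the 12 samples, and 767 of them were differentially expressed between F3 and F2 rats, which is 5.88% of those tested (adjusted p-value of at most 0.05, edgeR with Benjamini-Hochberg adjustment). Of these, 467 were higher in F3 rats (3.58% of all genes tested) and 300 were lower (2.30%). The changes were modest: 55 genes had a Log2 fold change (LFC) of at least 1 in size, 39 of them upward, and the median LFC over all genes was -0.0078. The count depended on single samples. It was 565 without F2 sample j, the one that stood apart, 660 without F2 sample i and 612 without F2 sample k, but 146 without F3 sample i, 427 without F3 sample j and 304 without F3 sample k. When AL and F1 rats were left out of the fit, 226 genes passed.

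**Figure D1:**
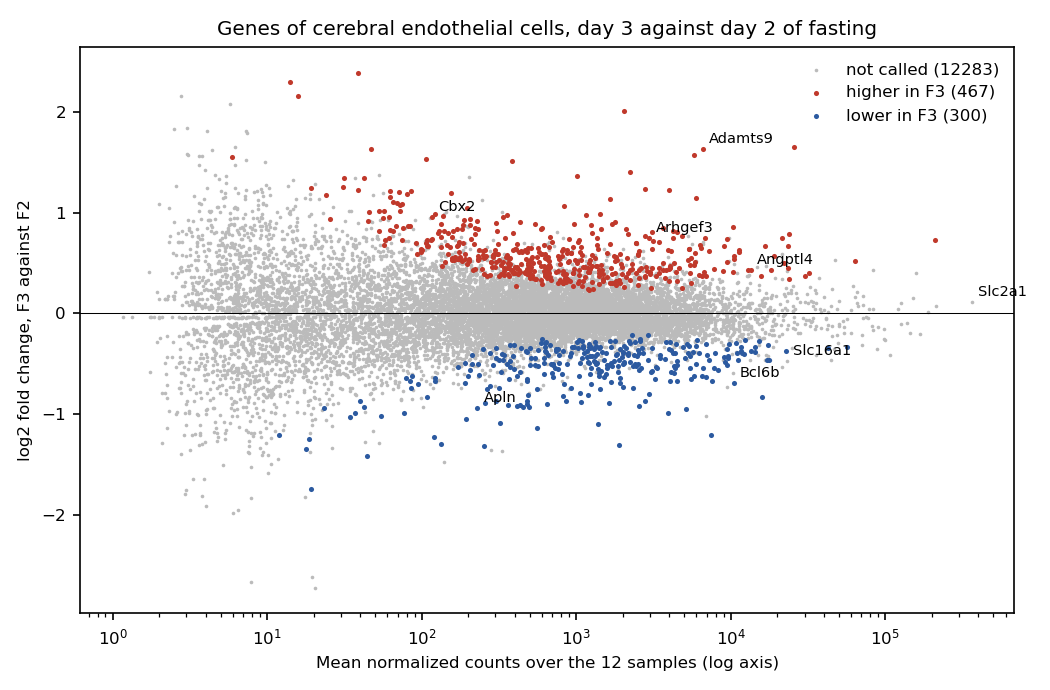
Log2 fold change of F3 against F2 rats (y axis) against the mean normalized counts over the 12 samples (x axis, log scale), with 1 point for each of the 13050 genes. Red points are the 467 genes higher and blue points the 300 genes lower in F3 rats, and Adamts9 stands at an LFC of 1.63.

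**Figure D2:**
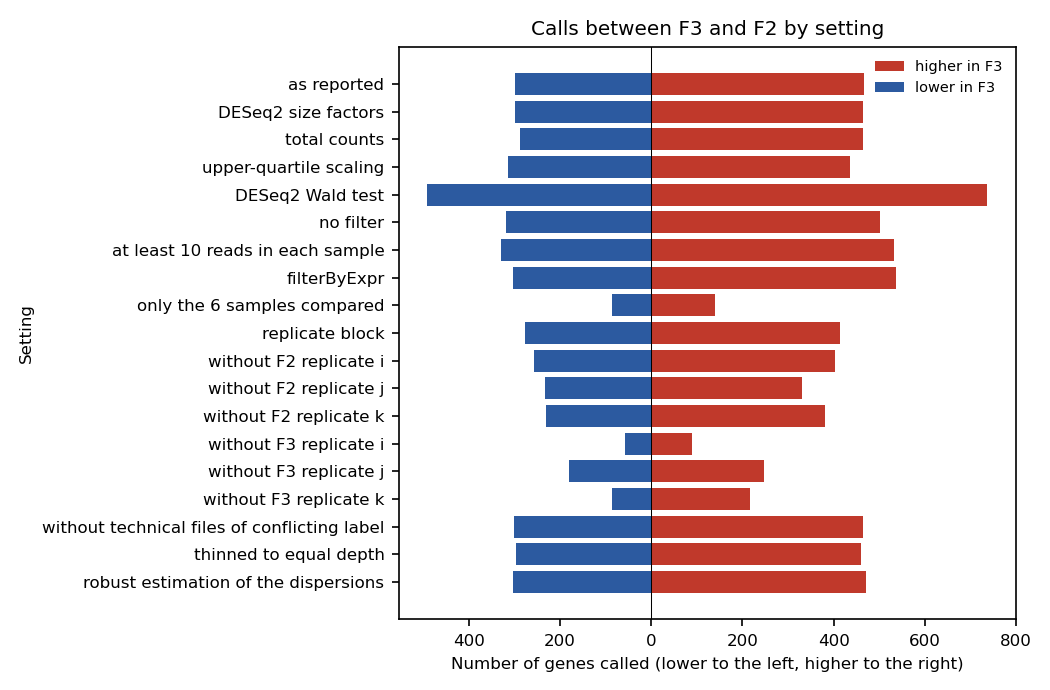
Number of genes called (x axis, lower in F3 to the left and higher to the right) under each setting (y axis). The bars run from 146 genes without F3 sample i to 1228 with the Wald test of DESeq2, beside 767 as reported.

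Gene symbols could be paired with 1495 of the tested features, mainly from the start of the alphabet, and 95 of these were differentially expressed, 57 higher and 38 lower. Most of the larger changes therefore carry no symbol: this holds for 49 of the 55 genes with an LFC of at least 1 in size. Among genes without a symbol and with at least 100 normalized counts on average, ENSRNOG00000007324 had 18798, 7916 and 13387 normalized counts at day 2 and 48795, 36946 and 40525 at day 3 (LFC 1.65 ± 0.26 standard error, adjusted p = 0.00656 from edgeR). ENSRNOG00000018646 had 2878, 3639 and 2337 at day 2 and 1220.4, 1078 and 1287 at day 3 (LFC -1.30 ± 0.19 standard error, adjusted p = 0.00520 from edgeR). Neither pair of groups overlapped.

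The largest rise among the genes named here was that of Adamts9, a secreted metalloprotease that cleaves proteoglycans such as versican. It had 3748, 2376 and 4518 normalized counts at day 2 and 12634, 8777 and 11546 at day 3, and every F3 sample was above every F2 sample (LFC 1.63 ± 0.21 standard error, adjusted p = 0.00262, by the quasi-likelihood model of edgeR and Benjamini-Hochberg adjustment). The groups did not overlap in 26.8% of all genes tested and in 766 of the 767 called. Separation of the groups thus adds no support to a call, and it was a condition for naming the largest changes. Cbx2, a chromodomain subunit of polycomb complexes, had 80.2, 67.4 and 85.2 normalized counts at day 2 and 163, 162 and 126 at day 3. The lowest F3 sample, k, was above the highest F2 sample (LFC 0.96 ± 0.16 standard error, adjusted p = 0.00808, edgeR). Slc36a1, which exports amino acids with protons from lysosomes, had 143, 99.1 and 144 normalized counts at day 2 and 249, 227 and 237 at day 3. Sample j was the lowest of the F2 samples and the groups did not overlap (LFC 0.88 ± 0.15 standard error, adjusted p = 0.00696, edgeR). Arhgef3, a guanine nucleotide exchange factor, had 2548, 2223 and 2192 normalized counts at day 2 and 3754, 4132 and 3809.9 at day 3. The F3 samples lay close together, above all F2 samples (LFC 0.75 ± 0.11 standard error, adjusted p = 0.00546, edgeR).

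A further 3 genes rose and were called whichever of the 6 samples was left out. Ccdc6, a coiled-coil protein known as a fusion partner in thyroid tumours, had 146, 108 and 129 normalized counts at day 2 and 196, 199.9 and 215 at day 3 (LFC 0.67, adjusted p = 0.0126, edgeR). Atpaf1, an assembly factor of the mitochondrial ATP synthase, had 319.8, 299 and 335 normalized counts at day 2 and 545, 467 and 476 at day 3 (LFC 0.64, adjusted p = 0.00696, edgeR). Slc25a46, an outer mitochondrial membrane protein of the carrier family, had 403, 299 and 349 normalized counts at day 2 and 581, 529 and 506 at day 3 (LFC 0.62, adjusted p = 0.00822, edgeR). In all of them the F3 samples lay above the F2 samples.

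Among the named genes whose fall held without any single sample, Bcl6b, a transcriptional repressor of the BCL6 family, was the largest. It had 10877, 14416 and 11433 normalized counts at day 2 and 6716, 7720.5 and 8325 at day 3 (LFC -0.69 ± 0.12 standard error, adjusted p = 0.00808, edgeR with Benjamini-Hochberg adjustment), and F2 sample j was the highest. Ahdc1, an AT-hook DNA-binding protein, had 819.9, 835 and 781 normalized counts at day 2 and 449, 557 and 615 at day 3 (LFC -0.59, adjusted p = 0.00713, edgeR). Afap1l2, an adaptor of Src and phosphoinositide 3-kinase signalling, had 3161, 3465 and 3450.2 normalized counts at day 2 and 2041, 2569.8 and 2133 at day 3 (LFC -0.58, adjusted p = 0.00773, edgeR). No F3 sample of these genes reached the F2 range. Acvr1, a type I receptor for bone morphogenetic proteins, had 6071, 5172 and 5336 normalized counts at day 2 and 3967, 4377 and 3828 at day 3 (LFC -0.45, adjusted p = 0.00876, edgeR). It was the single gene called among 16 tested of the bone morphogenetic protein and activin list (median LFC -0.13). That share is near the 5.88% of all genes and is no result about the list.

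**Figure D3:**
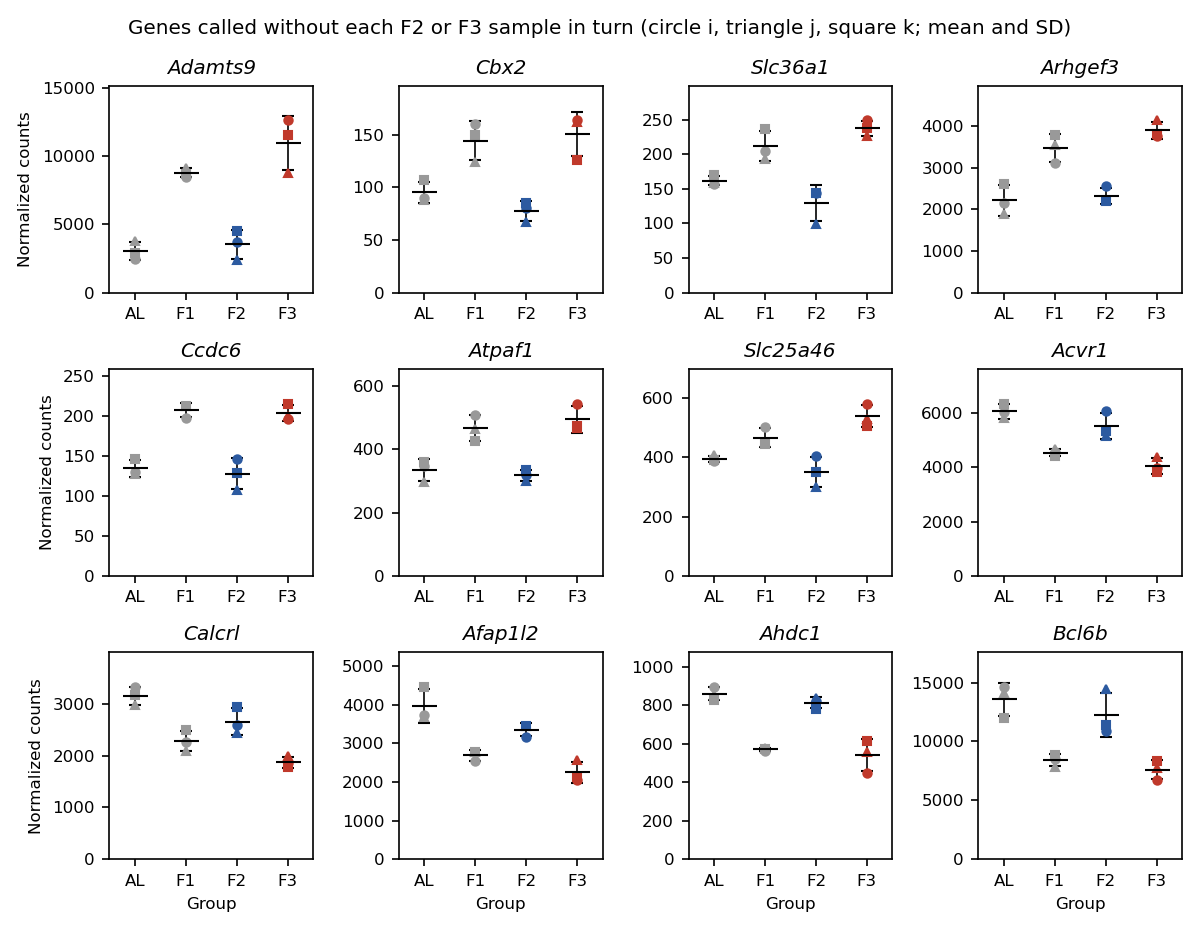
Normalized counts (y axis, from 0) of the 12 named genes called in each fit that left out 1 F2 or F3 sample, in AL, F1, F2 and F3 rats (x axis). Points are samples (circle i, triangle j, square k) and bars the mean and SD, with F2 in blue and F3 in red. In each panel the F2 and F3 points do not overlap, as in 766 of the 767 called genes.

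Of 16 vasoactive peptides and receptors tested, 3 were lower in F3 rats and 0 higher, with a median LFC of -0.21, beside 2.30% lower and 3.58% higher of all genes tested. The list held 25 genes, and the rest were not tested. Both directions were called without F2 sample j (2 lower and 1 higher) and without F3 sample k (1 and 1), and 1 to 3 were lower and 0 higher without each of the other samples. Calcrl, the receptor subunit shared by calcitonin gene-related peptide and adrenomedullin, had 2595, 2432 and 2936 normalized counts at day 2 and 1858, 1987 and 1779 at day 3 (LFC -0.50 ± 0.088 standard error, adjusted p = 0.00853, edgeR). The groups did not overlap, and the call held without each sample. Bdkrb2, the bradykinin B2 receptor, had 1762, 1604 and 1845 normalized counts at day 2 and 1210.2, 1045 and 1169.7 at day 3 (LFC -0.61 ± 0.13 standard error, adjusted p = 0.0206, edgeR), again without overlap. Its call was lost without F2 sample k (p = 0.0544), F3 sample i (p = 0.0698), F3 sample j (p = 0.0728) and F3 sample k (p = 0.0659), where p is the adjusted p of the fit without that sample, as in the paragraphs that follow. Apln, the peptide ligand apelin, had 193, 352 and 282 normalized counts at day 2 and 116, 136 and 179.7 at day 3 (LFC -0.94 ± 0.24 standard error, adjusted p = 0.0381, edgeR). The highest F3 sample, k, lay just under the lowest F2 sample, i, and the call was lost without F2 sample j (p = 0.115), F2 sample k (p = 0.0742), F3 sample i (p = 0.163), F3 sample j (p = 0.106) and F3 sample k (p = 0.0514).

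Of 20 genes tested that activate and oxidise fatty acids, 5 were lower and 0 higher, with a median LFC of -0.058, beside 2.30% lower and 3.58% higher of all genes. The list held 38 genes, and the rest were not tested, so nothing follows about fatty acid oxidation as a whole. Acsl3, which activates long-chain fatty acids to acyl-CoA, had 1879, 1971 and 2039.9 normalized counts at day 2 and 1302, 1466 and 1428 at day 3 (LFC -0.49 ± 0.092 standard error, adjusted p = 0.0116, edgeR). Acsl1, of the same family, had 1189, 1274 and 1343 normalized counts at day 2 and 969, 1002 and 931 at day 3 (LFC -0.39 ± 0.081 standard error, adjusted p = 0.0167, edgeR). In both, all F3 samples were below all F2 samples, but the call of Acsl3 was lost without F3 sample i (p = 0.0691) and that of Acsl1 without F3 sample i (p = 0.0742) and F3 sample k (p = 0.0720). Acot2, a mitochondrial acyl-CoA thioesterase, had 467, 510.2 and 429 normalized counts at day 2 and 353, 366 and 297 at day 3 (LFC -0.47, adjusted p = 0.0357, edgeR), Acsf2, another acyl-CoA synthetase, had an LFC of -0.33 (adjusted p = 0.0211) and Acad11, an acyl-CoA dehydrogenase, one of -0.31 (0.0396). Acot2 was lost without F2 sample i (p = 0.0658), F2 sample j (p = 0.0884), F3 sample i (p = 0.0999), F3 sample j (p = 0.0543) and F3 sample k (p = 0.138). Acsf2 was lost without F2 sample k (p = 0.0569), F3 sample i (p = 0.108) and F3 sample k (p = 0.0706). Acad11 was lost without F2 sample j (p = 0.0801), F2 sample k (p = 0.0761), F3 sample i (p = 0.107), F3 sample j (p = 0.102) and F3 sample k (p = 0.132). Without F3 sample i none of the list was called, without F3 sample k 1 was, and without each of the other samples 3 or 4 were. The dehydrogenases Acadl (LFC 0.087, adjusted p = 0.560) and Acads (LFC -0.16, adjusted p = 0.443) did not pass the threshold.

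Angptl4, a secreted inhibitor of lipoprotein lipase and a target of PPAR receptors, was higher in F3 rats. It had 11885, 12243 and 11789 normalized counts at day 2 and 16587, 16990.4 and 14854 at day 3 (LFC 0.43 ± 0.10 standard error, adjusted p = 0.0256, edgeR). All F3 samples were above all F2 samples, and the call was lost without F2 sample i (p = 0.0554), F2 sample k (p = 0.0608), F3 sample i (p = 0.103) and F3 sample j (p = 0.0820). Of the 12 PPAR targets tested, Angptl4 was higher, Acsl1 was lower and the median LFC was 0.062, beside 3.58% higher and 2.30% lower of all genes. The list held 30 targets, and the rest were not tested. Of 15 listed enzymes of ketone body and acetyl-CoA metabolism, 11 were tested. Among these, edgeR and DESeq2 called 0, and 0 had an unadjusted p-value under 0.05 in edgeR, with a median LFC of 0.024.

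Of the 49 solute carriers that the study had picked on these samples for a change in fasted against AL rats, 5 were higher in F3 than in F2 rats and 3 were lower (median LFC -0.061). Over all genes tested, 3.58% were higher and 2.30% lower. DESeq2 called 17 of the 49, and 32 had an unadjusted p-value under 0.05 in edgeR. Since the study's choice used the F2 and F3 samples, the list is not independent evidence of a share or of a direction. Slc25a24, a mitochondrial ATP-magnesium and phosphate carrier, had 474, 499 and 504 normalized counts at day 2 and 801, 681 and 701 at day 3 (LFC 0.56, adjusted p = 0.00915, edgeR), with a call lost without F3 sample i (p = 0.0550). Slc25a33, a mitochondrial carrier of pyrimidine nucleotides (LFC 0.40, adjusted p = 0.0391), and Slc9a8, a sodium-proton exchanger of the Golgi (LFC 0.45, adjusted p = 0.0205), rose with Slc36a1 and Slc25a46. Slc25a33 was lost without F2 sample i (p = 0.106), F2 sample k (p = 0.0792), F3 sample i (p = 0.0698), F3 sample j (p = 0.134) and F3 sample k (p = 0.0544). Slc9a8 was lost without F3 sample i (p = 0.106) and F3 sample j (p = 0.0503).

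On the falling side, Slc9a2, a sodium-proton exchanger of the plasma membrane, had 825, 779 and 801 normalized counts at day 2 and 490.0, 649 and 554 at day 3 (LFC -0.51, adjusted p = 0.0129, edgeR). The groups were apart, and the call was lost without F3 sample i (p = 0.0677) and F3 sample k (p = 0.0529). Slc40a1, the iron exporter ferroportin (LFC -0.38, adjusted p = 0.0253, edgeR), and Slc43a2, a transporter of large neutral amino acids (LFC -0.42, adjusted p = 0.0490, edgeR), fell as well. Slc40a1 was lost without F2 sample k (p = 0.0717), F3 sample i (p = 0.0767) and F3 sample k (p = 0.108). Slc43a2 was lost without F2 sample i (p = 0.0742), F2 sample j (p = 0.0922), F2 sample k (p = 0.0893), F3 sample i (p = 0.192) and F3 sample k (p = 0.134).

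The transporters best known at this barrier did not pass the threshold as tested here. Slc16a1, which encodes the monocarboxylate transporter MCT1, had 31256, 36341 and 32858 normalized counts at day 2 and 22422, 24493 and 25556 at day 3. No F3 sample reached the F2 range, yet the adjusted p was 0.0601 (LFC -0.47 ± 0.14 standard error, edgeR), and it was 0.04999 with the F2 and F3 samples alone, 0.0280 with no filter and 0.0145 with DESeq2. Slc2a1, which encodes the glucose transporter GLUT1, had 389016, 382257 and 355198 normalized counts at day 2 and 401902, 416026 and 402805 at day 3 (LFC 0.12, adjusted p = 0.493, edgeR). Slc19a3, a thiamine transporter, had 7127, 3581 and 5679 normalized counts at day 2 and 10292, 9699 and 6811 at day 3 (LFC 0.71, adjusted p = 0.0537, edgeR), with overlap between the groups, and passed the threshold without F2 sample i (p = 0.0198) and F3 sample k (p = 0.0432). It also passed with DESeq2 (adjusted p = 0.00853), and in edgeR with total counts (0.0435), upper-quartile scaling (0.0479), no filter (0.0168) and equal depth (0.0469). The glutamine transporter Slc38a3 (LFC 0.24, adjusted p = 0.138), the glutamate transporter Slc1a1 (LFC 0.31, adjusted p = 0.559), the taurine transporter Slc6a6 (LFC -0.28, adjusted p = 0.339) and the riboflavin transporter Slc52a2 (LFC 0.078, adjusted p = 0.591) did not pass it either.

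Among 38 ABC transporters edgeR called 0 and DESeq2 1, with 5 at an unadjusted p-value under 0.05 and a median LFC of -0.069. Abcb1a, which encodes P-glycoprotein, had 82601, 67163 and 80644 normalized counts at day 2 and 76770.1, 76566 and 71625 at day 3 (LFC -0.035 ± 0.088 standard error, adjusted p = 0.854, edgeR). Abcg2, the breast cancer resistance protein, had an LFC of -0.14 (standard error 0.13, adjusted p = 0.549), and Abcc4, which encodes MRP4, one of 0.035 (0.13, 0.903). In all of them the groups overlapped. Abcb1a has a close paralog, and reads that matched more than once had been removed.

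Among the genes of the cytoskeleton, Actb, of cytoplasmic beta-actin, had 60164, 64089 and 54898 normalized counts at day 2 and 45088, 51468 and 45553 at day 3 (LFC -0.33, adjusted p = 0.0378, edgeR). The groups did not overlap, and the call was lost without F2 sample i (p = 0.0727), F2 sample j (p = 0.0742), F3 sample i (p = 0.163) and F3 sample k (p = 0.132). The share called of 33 genes of actin and the Arp2/3 complex, 2, is near the 5.88% of all genes and is no result about the list. Of these, Actb was lower and Baiap2, which links Rac1 and Cdc42 to membrane protrusions, was higher (LFC 0.55, adjusted p = 0.0110, edgeR). Baiap2 was lost without F3 sample i (p = 0.0568). Cav1, the coat protein of caveolae, had 11224, 12418 and 11676 normalized counts at day 2 and 8591, 10217 and 8555 at day 3 (LFC -0.37, adjusted p = 0.0360, edgeR), and lost its call without F2 sample j (p = 0.0770), F2 sample k (p = 0.0664), F3 sample i (p = 0.156) and F3 sample k (p = 0.131).

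Among the angiogenic genes, 2 of 7 tested were higher, Adamts9 and Adgrl4, and 0 lower (median LFC 0.37), beside 3.58% higher of all genes. That list held 22 genes, and the rest were not tested. A single one was called without F2 sample j and without each of the F3 samples. Adgrl4, an adhesion receptor of endothelial cells also called ELTD1, had 28889.5, 24228 and 29296 normalized counts at day 2 and 36957, 36670.0 and 33297 at day 3 (LFC 0.38, adjusted p = 0.0333, edgeR). It was above the F2 range in every F3 sample and lost its call without F2 sample j (p = 0.0658), F3 sample i (p = 0.132), F3 sample j (p = 0.0943) and F3 sample k (p = 0.0533). Of the 20 clock genes listed, 2 were tested and both were lower, beside 2.30% lower of all genes. The rest of the list was not tested, so nothing follows about the clock as a whole. Bhlhe40, a repressor of the clock, had 16776, 17390.1 and 16857 normalized counts at day 2 and 13042, 12819 and 13187 at day 3 (LFC -0.39, adjusted p = 0.0236, edgeR), and Arntl, the clock activator BMAL1, had 2572, 2233 and 2176 normalized counts at day 2 and 1758, 1715 and 2017 at day 3 (LFC -0.35, adjusted p = 0.0341, edgeR). Each set of F3 samples lay below the F2 samples. Bhlhe40 was lost without F3 sample i (p = 0.0931), F3 sample j (p = 0.0720) and F3 sample k (p = 0.0720). Arntl was lost without F2 sample i (p = 0.0937), F3 sample i (p = 0.141) and F3 sample j (p = 0.117).

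In the BCL2 and caspase list, 2 of 24 genes were higher and 2 lower (median LFC 0.059), beside 3.58% higher and 2.30% lower of all genes. None of the list was called without F3 sample i. Casp2, an initiator caspase, rose (LFC 0.51, adjusted p = 0.0134, edgeR), as did Bik, a promoter of cell death present at a low level. Apaf1, the scaffold of the apoptosome (LFC -0.44, adjusted p = 0.0174, edgeR), and Casp1, which processes interleukin-1 beta (LFC -0.50, adjusted p = 0.0333, edgeR), fell. Casp2 was lost without F3 sample i (p = 0.0742). Apaf1 was lost without F3 sample i (p = 0.0843) and F3 sample k (p = 0.0746). Casp1 was lost without F2 sample j (p = 0.0833), F3 sample i (p = 0.149), F3 sample j (p = 0.0549) and F3 sample k (p = 0.0833). Of 38 chromatin readers and polycomb genes, Cbx2 and Brd3, a bromodomain reader (LFC 0.32, adjusted p = 0.0278, edgeR), were higher and 0 lower (median LFC 0.10), a share near the 5.88% of all genes and so no result about the list. Brd3 was lost without F3 sample i (p = 0.0867), F3 sample j (p = 0.0661) and F3 sample k (p = 0.0863). Of 34 genes of the cell cycle and mitosis, edgeR and DESeq2 called 0, and 6 had an unadjusted p-value under 0.05 in edgeR (median LFC -0.033).

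In the other lists at most 1 gene passed the threshold in each direction, beside 3.58% higher and 2.30% lower of all genes. A single call is no result about its list. The single calls upward were Atg14, a subunit of the lipid kinase complex that starts autophagy (LFC 0.46, adjusted p = 0.0158), Agpat4, an acyltransferase of phospholipid synthesis (LFC 0.47, adjusted p = 0.0127), Cars, the cysteinyl-tRNA synthetase (LFC 0.41, adjusted p = 0.0308), Ccng1, cyclin G1 (LFC 0.43, adjusted p = 0.0484), Anxa3, a calcium-dependent membrane-binding annexin (LFC 0.35, adjusted p = 0.0289), and Apol3, of the apolipoprotein L family (LFC 0.37, adjusted p = 0.0408), all by edgeR. Those downward were Auh, an enzyme of leucine breakdown (LFC -0.31, adjusted p = 0.0290), and Adamtsl2, a secreted relative of the ADAMTS proteases (LFC -0.42, adjusted p = 0.0484). Atg14 was lost without F3 sample j (p = 0.0575). Agpat4 was lost without F3 sample i (p = 0.0698). Cars was lost without F2 sample i (p = 0.0822), F2 sample k (p = 0.0555), F3 sample i (p = 0.0976) and F3 sample k (p = 0.0986). Ccng1 was lost without F2 sample i (p = 0.0700), F2 sample j (p = 0.115), F3 sample i (p = 0.196), F3 sample j (p = 0.0966) and F3 sample k (p = 0.0665). Anxa3 was lost without F2 sample i (p = 0.0634), F2 sample k (p = 0.0791), F3 sample i (p = 0.134) and F3 sample k (p = 0.0780). Apol3 was lost without F2 sample i (p = 0.0980), F2 sample j (p = 0.0810), F2 sample k (p = 0.0541), F3 sample i (p = 0.122), F3 sample j (p = 0.135) and F3 sample k (p = 0.0632). Auh was lost without F2 sample j (p = 0.0550), F3 sample i (p = 0.139), F3 sample j (p = 0.0668) and F3 sample k (p = 0.0610). Adamtsl2 was lost without F2 sample i (p = 0.103), F2 sample j (p = 0.111), F3 sample i (p = 0.160), F3 sample j (p = 0.0760) and F3 sample k (p = 0.151). Of the 18 genes of the ATP synthase, Atpaf1 was the single one called, and the median LFC was -0.17. By edgeR, 0 of 10 cytosolic chaperones tested (32 listed) passed the threshold, with 5 at an unadjusted p-value under 0.05 and a median LFC of -0.18. It also called 0 of 16 subunits of the vacuolar proton pump, with 5 at an unadjusted p-value under 0.05 and a median of -0.12. DESeq2 called 0 and 2 of these.

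Other genes with large changes were named by size alone. Bcar3, an adaptor of Cas signalling (LFC 0.75, adjusted p = 0.0110), Adgrl2, the adhesion receptor latrophilin 2 (LFC 0.65, adjusted p = 0.00915), Aptx, the DNA repair enzyme aprataxin (LFC 0.67, adjusted p = 0.0179), Arid3a, a DNA-binding protein (LFC 0.76, adjusted p = 0.0309), Abr, a regulator of Rac (LFC 0.70, adjusted p = 0.0332), and Arhgap31, which inactivates Cdc42 and Rac1 (LFC 0.67, adjusted p = 0.0377), were higher in F3 rats by edgeR. Bcar3 was lost without F3 sample i (p = 0.0594). Adgrl2 was lost without F3 sample i (p = 0.0529). Aptx was lost without F3 sample i (p = 0.0941). Arid3a was lost without F2 sample i (p = 0.0585), F2 sample j (p = 0.0846), F3 sample i (p = 0.127) and F3 sample k (p = 0.0840). Abr was lost without F2 sample k (p = 0.0789), F3 sample i (p = 0.129), F3 sample j (p = 0.0737) and F3 sample k (p = 0.0660). Arhgap31 was lost without F3 sample i (p = 0.144), F3 sample j (p = 0.0701) and F3 sample k (p = 0.0837). Akr1b1, aldose reductase (LFC -0.89, adjusted p = 0.0213), Asap3, an inactivator of Arf proteins (LFC -0.75, adjusted p = 0.0142), Car4, a membrane-bound carbonic anhydrase (LFC -0.54, adjusted p = 0.0158), and Cacnb2, a calcium channel subunit (LFC -0.51, adjusted p = 0.0179), were lower by edgeR. Akr1b1 was lost without F2 sample k (p = 0.0547), F3 sample i (p = 0.0707), F3 sample j (p = 0.0709) and F3 sample k (p = 0.0746). Asap3 was lost without F3 sample i (p = 0.0698) and F3 sample k (p = 0.0512). Car4 was lost without F3 sample i (p = 0.0503) and F3 sample k (p = 0.0638). Cacnb2 was lost without F3 sample i (p = 0.0920) and F3 sample k (p = 0.0645).

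**Figure D4:**
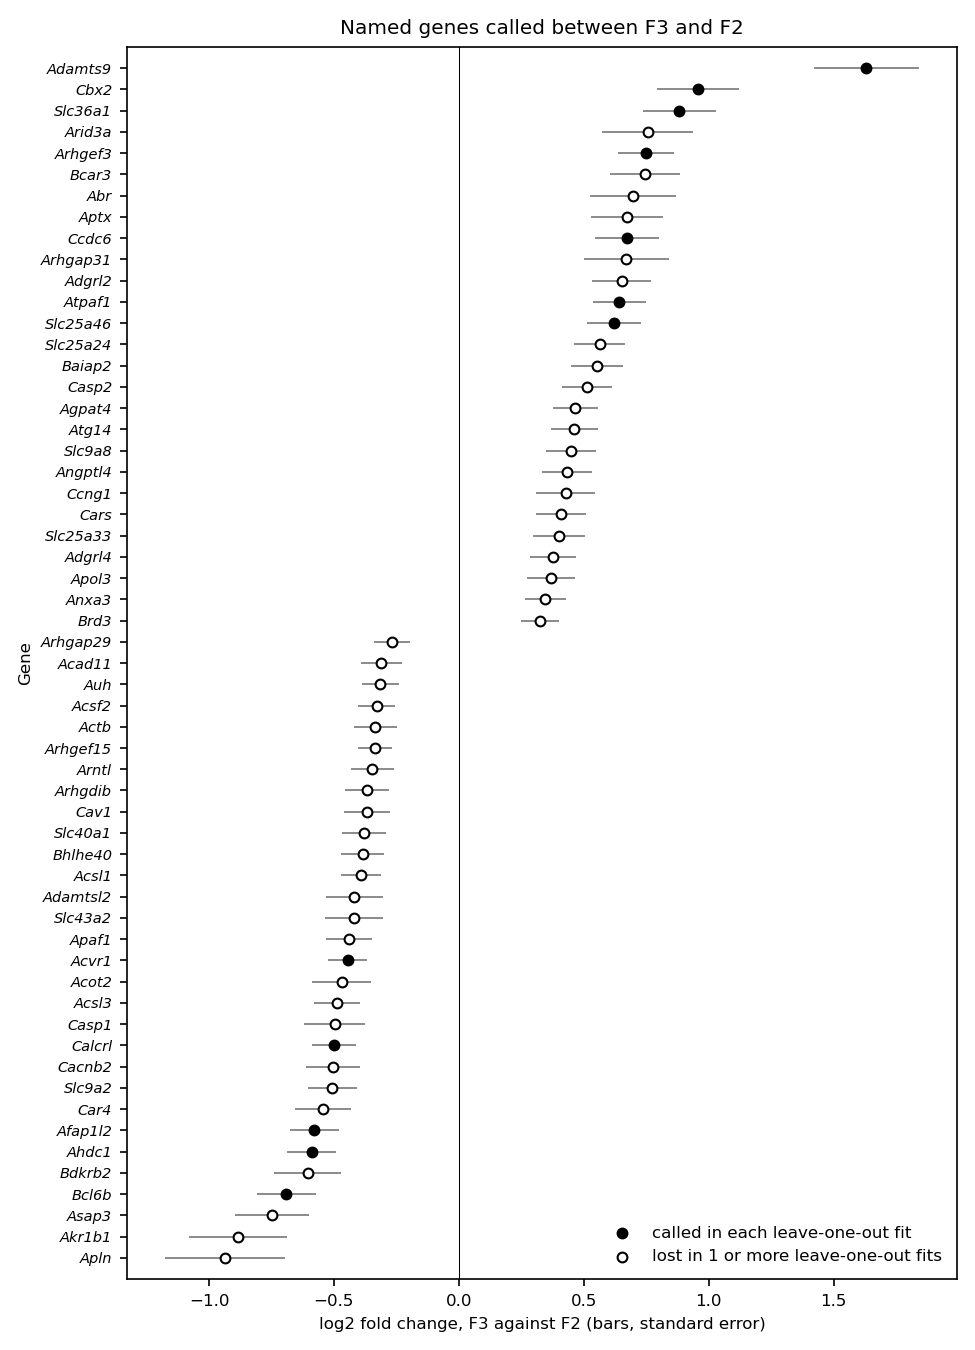
Log2 fold change of F3 against F2 rats (x axis) with its standard error (bars) for the 57 named genes that were called (y axis). The 12 filled points kept their call in each of the 6 fits that left out a sample, and Apln, at -0.94, has the widest bar.

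The genes that separated F3 from F2 rats were then looked up in F1 against AL rats, a contrast that shares no sample with the first. AL and F1 rats had, however, entered the filter, the normalization and the spread of the fit that called these genes. Of the 467 genes higher in F3 than in F2 rats, 454 (97.2%) were also higher in F1 than in AL rats, against 49.2% of all genes tested. Of the 300 lower genes, 277 (92.3%) were lower in F1 than in AL rats, against 50.8% of all genes. The median LFC of F1 against AL rats was 0.36 for the higher genes, -0.34 for the lower genes and -0.0081 for the 12283 genes not called. Adamts9 illustrates this, with 2440 to 3795 normalized counts in AL rats and 8482 to 9141 in F1 rats, and so does Bcl6b, with 11954 to 14633 in AL rats and 7831 to 8836 in F1 rats. With the calls made without F2 sample j these shares were 98.2% and 93.2%, and without F3 sample i they were 97.8% and 98.2%. With the calls of the F2 and F3 samples alone, where AL and F1 rats entered only the filter, they were 99.3% of 139 higher and 89.7% of 87 lower genes. Genes are not independent replicates, so no p-value is given. Whether F1 and F3 samples shared a handling step that AL and F2 samples did not was not tested, since no such step is given for them.

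**Figure D5:**
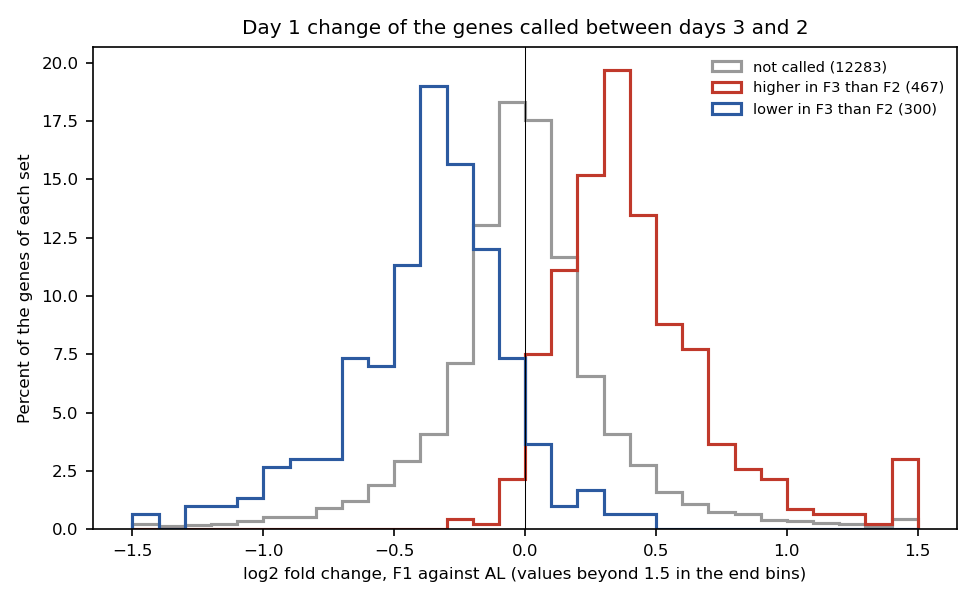
Distribution of the log2 fold change of F1 against AL rats (x axis) as a percent of the genes of each set (y axis), for the 467 genes higher (red) and the 300 genes lower (blue) in F3 than in F2 rats and the 12283 genes not called (grey). The median lies at 0.36, -0.34 and -0.0081.

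Promoters of the called genes were read from RefSeq (GRCr8 build), which held 77 of the 95, over the 250 bases before the start. The E-box CACGTG, the letters bound by clock and MYC-family factors, was searched on both strands and reads the same on each. It was in 7 of 48 promoters of higher genes (14.6%), 1 of 29 of lower genes (3.45%), 9.03% of the tested genes with a symbol and 5.79% of all 27457 genes with a promoter. The named genes that hold it are shown over 100 bases each, with the E-box in capitals, chosen after the search. They are Slc36a1 (chr10:39824935-39825034, plus strand), Slc25a33 (chr5:165502974-165503073, minus strand), Bcar3 (chr2:213209687-213209786, plus strand), Ccdc6 (chr20:18527378-18527477, minus strand) and Bhlhe40 (chr4:143174200-143174299, plus strand), of which the first 4 rose and Bhlhe40 fell.
Slc36a1: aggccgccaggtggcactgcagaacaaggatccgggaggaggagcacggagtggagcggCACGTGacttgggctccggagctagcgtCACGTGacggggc
Slc25a33: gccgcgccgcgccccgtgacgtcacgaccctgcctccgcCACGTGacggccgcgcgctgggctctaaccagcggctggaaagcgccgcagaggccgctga
Bcar3: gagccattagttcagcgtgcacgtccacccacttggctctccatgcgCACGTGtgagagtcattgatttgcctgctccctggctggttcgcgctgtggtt
Ccdc6: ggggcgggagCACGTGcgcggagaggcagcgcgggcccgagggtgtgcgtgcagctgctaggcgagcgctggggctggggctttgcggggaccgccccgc
Bhlhe40: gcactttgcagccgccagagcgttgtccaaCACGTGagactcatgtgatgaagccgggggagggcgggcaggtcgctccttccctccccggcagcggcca
Slc36a1 holds a pair of E-boxes near its start. A match is a description of the letters, and no binding was measured. The GC box GGGCGG, on both strands, was in 54.2% of the promoters of higher genes and 75.9% of those of lower genes, against 60.9% of the tested genes with a symbol and 32.4% of all.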

How the data were processed

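The authors filtered single-end reads, mapped these with STAR on the Ensembl rat assembly, dropped multiply matching reads, and deposited raw counts per gene from HTSeq-count 0.5.3. The libraries were strand-specific, but whether counting used strand is not given in the sources used here. It is therefore not known whether overlapping genes on opposite strands were told apart. Counts of 4 technical replicates were summed. Genes counted in all 12 samples (minimum 1 read) were tested with edgeR 4.0.16 in R 4.3.3 (TMM, quasi-likelihood test with default dispersion settings, 1 model of 4 group means, Benjamini-Hochberg adjustment). A fit with robust dispersions, run after the default, is an alternative chosen after seeing the data. Normalized counts are counts per TMM-scaled library size times its mean. Symbols came from the gene tables of the study. Named genes were the 12 largest rises and falls among called genes with at least 100 normalized counts and no overlap, called members of the gene lists, and genes the study names, and Pdk4, Ppard, Cpt1a and Mlycd were not analysed here. Results for 1 gene list are not reported here. The E-box genes, Bik and the genes without a symbol were named after their values were seen. The comparison, lists and genes were chosen with earlier results of these data known. Samples are pools of animals, and p-values measure the spread between them. The test was also run on simulated data with known changes, and the outcome is not given here. DESeq2 1.42.0, other scalings, filters, left-out samples and a replicate block were alternatives.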

Additional observations from a re-analysis of the deposited data

How the results depend on the processing

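The scaling, the filters, the thinning to equal depth and the robust dispersions gave 750 to 861 called genes, beside 767 as reported, and robust dispersions, tried after the default, gave 775. The Wald test of DESeq2 called 1228, the F2 and F3 samples alone 226 and a threshold of 0.01 left 130. Leaving out 1 F2 or F3 sample in turn gave 146 to 660 calls, and without F3 sample k 71.4% of them were higher, against 60.9% as reported. The fall to 226 goes with fewer samples in the fit, and the cause of the loss without F3 sample i was not tested. No scaling moved the median of all genes by more than 0.1. Of the 57 named genes called, 12 kept their call without each sample and 17 with the F2 and F3 samples alone. The uncalled genes Abcc4 and Abcb1a changed sign when a sample was left out: the LFC of Abcc4 ranged from -0.13 without F2 sample j to 0.13 without F2 sample k, and that of Abcb1a from -0.12 without F2 sample j to 0.021 without F2 sample i. With the letter of the sample as a replicate block, 692 genes were called and 49 of the 57 named genes kept their call. Same-letter F2 and F3 samples deviated together with correlations of 0.10, 0.12 and 0.017, and pairs of unlike letters ranged from -0.15 to 0.092. These values do not settle whether the letters pair the samples. The study speaks of independent experiments and reports no replicate block, so the main fit held none.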
